A study of Rattus norvegicus with 4 samples.

Results

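Of the 33506 genes counted in rat dorsal root ganglia (DRGs), 70 carried a non-coding biotype (41 lincRNA, 2 antisense, 27 processed_transcript), lay outside chromosomes X, Y and MT and had at least 50 raw counts in each of the 4 libraries. The members were selected on their raw counts, so their levels below are a description. The difference between the groups was not part of the rule, but a floor that applies in every library leaves out genes that were low in only 1 group. The libraries came from wild-type (WT) neonatal Wistar rats, 2 given vehicle (PBS) and 2 given cisplatin, a platinum-based chemotherapeutic, at 0.3 mg/kg. Injections were made at P14 and P16, and each library pooled 2 to 5 lumbar DRGs. By the study's methods the ganglia were collected at P23, but the labels say 16 days after treatment. The sex of the rats in each library is not given in the sources used here.

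A long non-coding RNA is a transcript that is not translated into a known protein. Such RNAs lie between genes (lincRNA), on the other strand of a gene (antisense), or within a locus that otherwise makes a protein, where Ensembl called a transcript without an annotated reading frame processed_transcript. In nervous tissue they are known from nuclear bodies, from hosts of small nucleolar RNAs (snoRNAs) and from imprinted clusters. DRGs contain sensory neuron cell bodies, satellite glia, Schwann cells and other cells. Because they are bulk tissue, fewer cells of a type and less RNA per cell cannot be told apart.

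The annotation of the members went against a uniform long non-coding class. All 27 processed_transcript members stood at loci of protein genes by their names or descriptions. Of these, 26 carried a similarity to a Swiss-Prot protein or a Pfam domain, and 22 matched a RefSeq gene by symbol or synonym, each of them protein-coding there. Examples are Snx3 (a sorting nexin of endosomes), Col6a3 (a collagen VI chain) and Top2b (a DNA topoisomerase). Of the 43 lincRNA and antisense members, 19 carried a protein similarity and 24 carried none. In RefSeq 1 of the 43 was found, LOC102549726, an lncRNA. Of 67 well-known long non-coding RNA symbols looked up (among them Malat1, Neat1, Meg3 and Gas5), 2 were listed by symbol, Snhg11 and Miat. Neither was a member, since Snhg11 is given there as protein_coding, with 1265 and 561 counts in the vehicle libraries and 1033 and 718 in the cisplatin libraries, and Miat had 0 counts in every library. The members are therefore called rows with non-coding biotypes here. Of 2980 such rows on the same chromosomes, 1752 had no count in any library, 166 had at least 10 counts in every library and 70 had at least 50. At the floor, Arid5b (minimum 52), Rn60_13_0829.4 (52) and Rn60_10_0699.2 (58) were just inside, and LOC102548225 (46), AABR07030598.1 (41) and AABR07059159.1 (41) just outside.

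Total counts ran from 21384801 to 25618417 per library, and the members took 0.252% and 0.215% of them in the vehicle libraries and 0.231% and 0.193% in the cisplatin libraries (replicate 1 first, here and below). In each group replicate 1 was the higher, so the groups overlapped. The libraries of a group differed in cell-type markers. The 12 sensory neuron markers summed to 37120 and 24430 CPM (counts scaled to library size) in the vehicle libraries and to 43190 and 28160 in the cisplatin libraries. The 8 Schwann cell markers summed to 65880 and 144500 CPM in the vehicle libraries and to 48420 and 126600 in the cisplatin libraries. Skeletal muscle markers were highest in vehicle replicate 1, at 597 CPM against 16.7 to 58.0 elsewhere, and markers of spinal cord glia were also highest there, at 163 CPM against 23.3 to 37.9. Among 6 endothelial markers Cldn5 had 0 counts. Whether strand was used in counting is not given in the sources used here, so genes that overlap are uncertain.

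The members covered a wide range of levels. Per gene length, the highest was AABR07065531.5, a lincRNA of 583 bp on the plus strand of chromosome 6 (133667975 to 133676907, Rnor_6.0), at 247 and 203 FPKM (fragments scaled to gene length and library size) in the vehicle libraries and 268 and 190 FPKM in the cisplatin libraries. Snx3 followed at 182 and 182 FPKM against 221 and 189. Then came AABR07027407.1 (similar to neuritin), AABR07017145.1 (similar to CADPS, a regulator of vesicle release), Smim20 (a small mitochondrial membrane protein) and Sv2b (a synaptic vesicle protein), with means of 67.1, 58.5, 29.8 and 26.7 FPKM. The median member had a mean of 5.86 FPKM, beside 6.82 for all 16182 genes tested. Among all genes with at least 50 counts in every library, the floor of the members, the median was 11.02 FPKM. In cisplatin replicate 2 AABR07065531.5 and Snx3 were nearly equal, and their difference there was smaller than the spread between libraries of either gene.

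**Figure D1:**
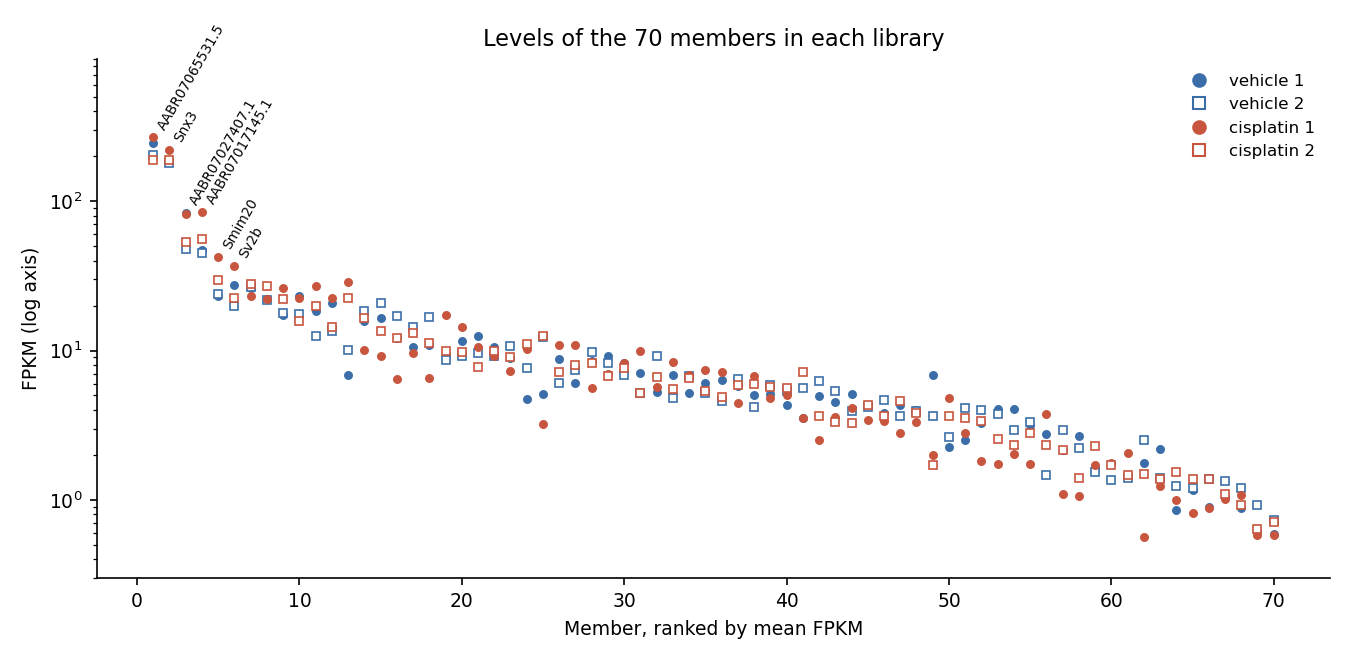
FPKM of each of the 70 members (log axis) in the 4 libraries, ranked by mean FPKM; filled circles are replicate 1 and open squares replicate 2 of each group. AABR07065531.5 and Snx3 stood above the other members, at means of 226.9 and 193.3 FPKM.

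AABR07065531.5 lies between Dlk1 and Rtl1, on the strand of the microRNA genes that follow it, the nearest being Mir770. This is the imprinted region in which mammals carry the non-coding RNA Meg3, and RefSeq lists Meg3 and Mir770 between the same 2 genes, but the deposited table does not pair the clone name with Meg3. Its level was 144 and 119 CPM in the vehicle libraries and 156 and 111 CPM in the cisplatin libraries, so the groups overlapped (log2 fold change, cisplatin minus vehicle, 0.02 ± 0.25 SE). The sign of this value depended on scaling, since it was -0.03 with library size alone. The Mir770 row itself had 156 counts in vehicle replicate 1 and 22 to 37 in the other 3 libraries. Dlk1, a growth regulator, had 64 and 37 counts after vehicle and 5 and 35 after cisplatin, and Rtl1, a retrotransposon-derived gene, 44 and 15 against 42 and 23. A second microRNA gene, Mir488, lies inside the member Astn1 (astrotactin, a neuronal adhesion protein) on the same strand and had 0 counts in every library. The libraries were made from poly-T bound messenger RNA. Counts on rows of microRNA genes, and of snoRNA genes below, are therefore not levels of the mature RNAs. The mature sequences of both microRNAs are shown because their genes place the 2 members; they come from RefSeq (GRCr8), with the seed (bases 2 to 8) in capitals. The 4 seeds differ from each other.
rno-miR-770-5p: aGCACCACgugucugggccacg
rno-miR-770-3p: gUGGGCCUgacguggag
rno-miR-488-5p: cCCAGAUAauggcacucucaa
rno-miR-488-3p: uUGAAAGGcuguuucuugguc

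Between the groups, 0 of the 70 members passed edgeR's quasi-likelihood test at an adjusted p under 0.05 with a fold change of at least 1.5, where 1 of all 16182 genes did (0.00618%, with 0% higher and 0.00618% lower). DESeq2 called 1 member as higher, AABR07045680.1, and 0.797% of all genes (0.278% higher and 0.519% lower). At an unadjusted p under 0.05 and the same fold, 8 members (11.4%) passed, 3 higher and 5 lower after cisplatin, where 7.98% of all genes did (2.87% higher and 5.11% lower). Without vehicle replicate 1 the count was 3 (4.29%, all genes 4.46%) and without vehicle replicate 2 it was 5 (7.14%, all genes 7.0%). Without cisplatin replicate 1 it was 2 (2.86%, all genes 3.70%) and without cisplatin replicate 2 it was 16 (22.9%, all genes 12.3%), so the count over all genes moved in the same direction each time. Of the 70, 29 had groups that did not overlap in TMM-normalised CPM, 14 higher and 15 lower, which is 41.4% of the members and 41.4% of all genes tested (20.5% higher and 20.9% lower). With library size alone the split was 9 higher and 24 lower (47.1% of the members, 40.2% of all genes). The median log2 fold change of the members was -0.06, with 31 above and 39 below 0, beside -0.01 for all genes, of which 49.4% were above and 50.6% below 0. Their median absolute log2 difference was 0.29 and that of all genes 0.28. Among all genes with at least 50 counts in every library it was 0.25. With 2 libraries against 2, the exact permutation test for any one member (two-sided) has 0.33 as its smallest p, so a spread modelled over all genes was needed.

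The 12 members with non-overlapping groups and the smallest unadjusted p had adjusted p-values of 0.537 to 0.573 in edgeR. Of these, 6 were higher and 6 lower after cisplatin, and 8 of them are those that passed unadjusted.

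In edgeR, AABR07045680.1 had the largest log2 difference of the 70. This lincRNA of 795 bp without protein similarity lies on the plus strand of chromosome 20 (56198049 to 56199332) and had 139 and 164 counts in the vehicle libraries and 592 and 428 in the cisplatin libraries. Both cisplatin libraries were above both vehicle libraries, at 22.8 and 17.8 CPM against 5.43 and 8.15 (2.996-fold, log2 1.58 ± 0.29 SE). DESeq2 gave an adjusted p of 0.00467, and over the 14 alternatives the adjusted p ran from 0.0036 to 0.997, with the log2 difference between 1.32 and 1.91. Its nearest tested protein-coding neighbour, Cd99 (a cell adhesion molecule), starts 1024 bp away in the opposite direction and differed by -0.08 ± 0.22, with overlapping groups.

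AABR07054593.1, another lincRNA without protein similarity, lies on the minus strand of chromosome 3 (162687971 to 162692111). Its level was 8.74 and 14.3 CPM in the vehicle libraries and 18.99 and 20.39 CPM in the cisplatin libraries (log2 0.77 ± 0.29 SE). Its start lies 74 bp from that of Ncoa3, a nuclear receptor coactivator read in the other direction. Ncoa3 had 383 and 334 counts after vehicle and 203 and 288 after cisplatin, and so stood lower where the lincRNA stood higher (log2 -0.67 ± 0.28 SE, adjusted p = 0.545 in edgeR). In this pair the 2 genes differed in opposite directions.

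The third lincRNA, AABR07071395.1 on chromosome 8 (114037763 to 114039980, minus strand), had the most negative log2 difference of the 70 in edgeR. It had 341 and 143 counts in the vehicle libraries and 101 and 80 in the cisplatin libraries, which is 13.3 and 7.11 CPM against 3.89 and 3.33 CPM (log2 -1.50 ± 0.39 SE). Most of the vehicle mean came from replicate 1. Atp2c1, a Golgi calcium pump that lies 24140 bp away, differed by -0.24 ± 0.22.

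AABR07017145.1, described by its similarity to CADPS, stood at 96.9 and 93.3 CPM in the vehicle libraries and at 174.7 and 114.9 CPM in the cisplatin libraries (log2 0.61 ± 0.26 SE). Both cisplatin libraries were higher, and replicate 1 much more so than replicate 2. LOC102549726, on the minus strand of chromosome 20 (4871264 to 4873982), had 26.4 and 27.4 CPM after vehicle and 40.2 and 33.7 CPM after cisplatin (log2 0.46 ± 0.20 SE). It contains the snoRNA genes SNORD48 and SNORD52 on its own strand, with 0 or 1 count each in a library, and so has the layout of a snoRNA host gene. It also lies within the spans of the class I histocompatibility genes RT1-CE4, RT1-CE7 and RT1-CE2 on the same strand, so reads could be shared. RT1-CE4 had 143 and 20 counts after vehicle and 198 and 160 after cisplatin. RT1-CE7 and RT1-CE2 were not higher after cisplatin, RT1-CE7 at 45 and 43 against 27 and 42 and RT1-CE2 at 12 and 4 against 4 and 4.

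**Figure D2:**
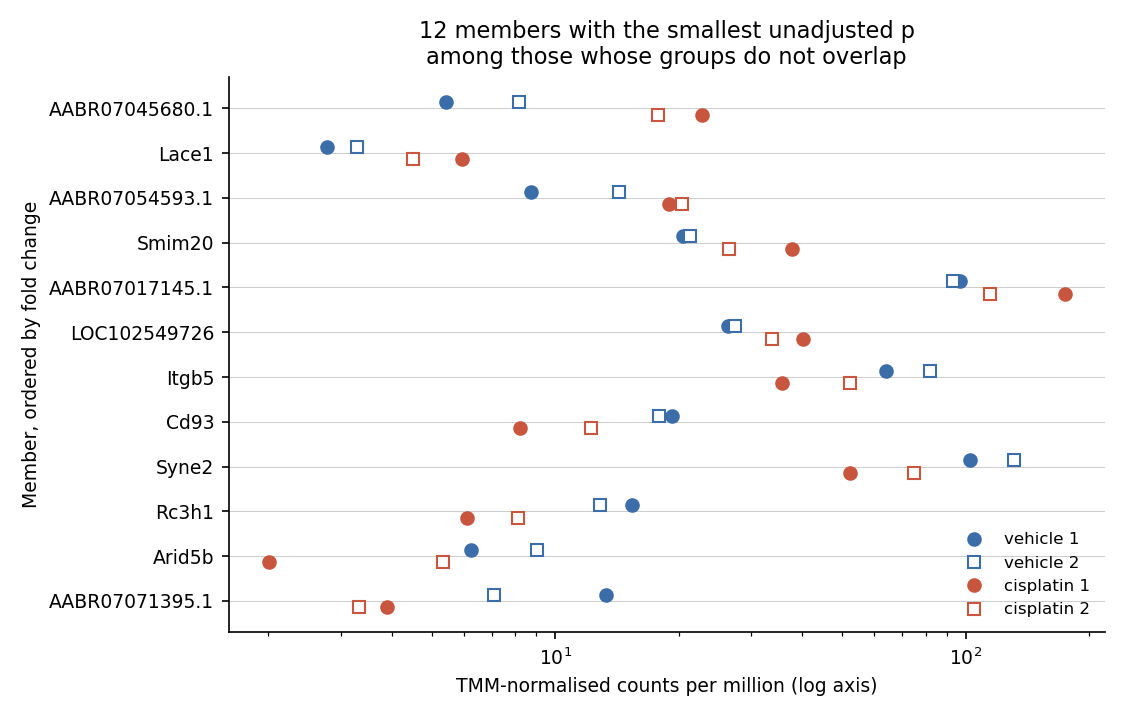
TMM-normalised CPM (log axis) in each library for the 12 members with non-overlapping groups and the smallest unadjusted p, ordered by fold change; filled circles are replicate 1, open squares replicate 2. AABR07045680.1 lies at 5.43 and 8.15 CPM after vehicle and at 22.8 and 17.8 CPM after cisplatin.

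The processed_transcript members are described by role, in groups set by gene name after the values had been seen, so the groups support nothing by themselves. Of the 5 for matrix, adhesion and vessel proteins, 4 had a negative and 1 a positive log2 difference, and none passed an adjusted p. Their median length was 7143 bp. Cd93, a receptor of vessel endothelium, had 19.3 and 17.9 CPM in the vehicle libraries and 8.20 and 12.2 CPM in the cisplatin libraries (log2 -0.87 ± 0.27 SE). Itgb5, an integrin subunit that binds vitronectin, had 64.0 and 81.9 against 35.7 and 52.3 CPM (log2 -0.73 ± 0.26 SE). For Cd93 and Itgb5 the groups did not overlap (40% of the 5, all genes 41.4%). Col6a3 had 132.7 and 188.8 against 71.0 and 133.9 CPM, and Tnxb (the matrix protein tenascin-X) 117.2 and 182.6 against 70.4 and 120.4 CPM, and for both the groups overlapped. The log2 difference of Tnxb was -0.65 and went to -0.25 with the length correction. The fifth, Rn60_8_0646.1 (similar to Thsd4, a matrix protein), was higher, with a log2 difference of 0.29 ± 0.35. Of the 6 markers of fibroblasts or meninges 3 had positive and 3 negative log2 differences, with a median of -0.05. Their sum, scaled to library size alone, was 5257 and 6099 CPM after vehicle and 2891 and 4906 CPM after cisplatin, and came mostly from Col1a1. With TMM normalisation Col1a1 stood at 3954 and 5198 against 1807 and 3688 CPM, and Ptgds at 81.0 and 72.6 against 311.4 and 333.6 CPM. Col1a1 was lowest in cisplatin replicate 1, as were Cd93, Itgb5, Col6a3 and Tnxb. Endothelial markers summed to 116.8, 123.9, 90.4 and 109.4 CPM in the same order of libraries. The part of these markers in the differences was not tested.

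The 6 members for nuclear proteins all had negative log2 differences, with a median of -0.35. Their median length was 9145.5 bp, and all tested genes over 5000 bp had a median log2 difference of -0.29. Syne2, which encodes nesprin-2 of the nuclear envelope, had 102.5 and 131.2 CPM in the vehicle libraries and 52.2 and 74.8 in the cisplatin libraries (log2 -0.88 ± 0.26 SE). Both cisplatin libraries were below both vehicle libraries, but with the length correction the log2 difference was -0.31. Arid5b, a DNA-binding chromatin protein, had 6.25 and 9.05 against 2.00 and 5.33 CPM (log2 -1.06 ± 0.52 SE), with cisplatin replicate 1 far below the other 3. For Trrap, a scaffold of histone acetyltransferase complexes, and Gtf2ird2, a transcription factor, the groups also did not overlap, while for Syne1 and Top2b they did. Non-overlapping groups were thus 66.7% of the 6, against 41.4% of all genes tested. Rc3h1 (roquin-1, which promotes decay of messenger RNAs) had 15.4 and 12.9 CPM after vehicle and 6.09 and 8.12 CPM after cisplatin (log2 -0.996 ± 0.265 SE).

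The 6 members for neuronal proteins varied between the libraries of each group, and for 5 of them the groups overlapped. The groups did not overlap for 16.7% of the 6, against 41.4% of all genes tested. Sv2b was at 145.4 and 105.9 CPM in the vehicle libraries and at 194.6 and 118.4 CPM in the cisplatin libraries (log2 0.32 ± 0.31 SE). Astn1 had 64.0 and 44.6 against 80.4 and 52.5 CPM, and LOC100364190 (similar to Cntnap2, an axonal adhesion protein) 52.9 and 42.8 against 66.8 and 45.1 CPM. In 5 of the 6, replicate 1 was the higher in both groups, and so were the summed sensory neuron markers, whose part in these values was not tested. All 12 of those markers had positive log2 differences, with a median of 0.40, and none was called. Of the 6, 4 had positive and 2 negative log2 differences. The negative ones were Adgrb1, an adhesion receptor, at 70.3 and 54.9 against 59.5 and 44.0 CPM, and Sdk1, a synaptic adhesion protein, at 14.4 and 19.7 against 7.36 and 14.3 CPM. Sdk1 was also the one that was higher in replicate 2 of both groups.

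Smim20 stood at 20.5 and 21.3 CPM in the vehicle libraries and 37.8 and 26.5 CPM in the cisplatin libraries (log2 0.62 ± 0.24 SE). Lace1, listed in RefSeq as Afg1l, a mitochondrial ATPase, stood at 2.77 and 3.28 against 5.93 and 4.49 CPM (log2 0.79 ± 0.34 SE). In both genes the cisplatin libraries were higher without overlap, replicate 1 the more so. By biotype, the processed_transcript members had a median log2 difference of -0.16 (10 above and 17 below 0), and the lincRNA and antisense members one of -0.01 (21 above and 22 below). The 24 of the latter without protein similarity had a median of -0.01 as well, and for 7 of them (29.2%, all genes 41.4%) the groups did not overlap. Among the 19 with protein similarity this share was 52.6%, and over all 43 lincRNA and antisense members it was 39.5%.

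**Figure D3:**
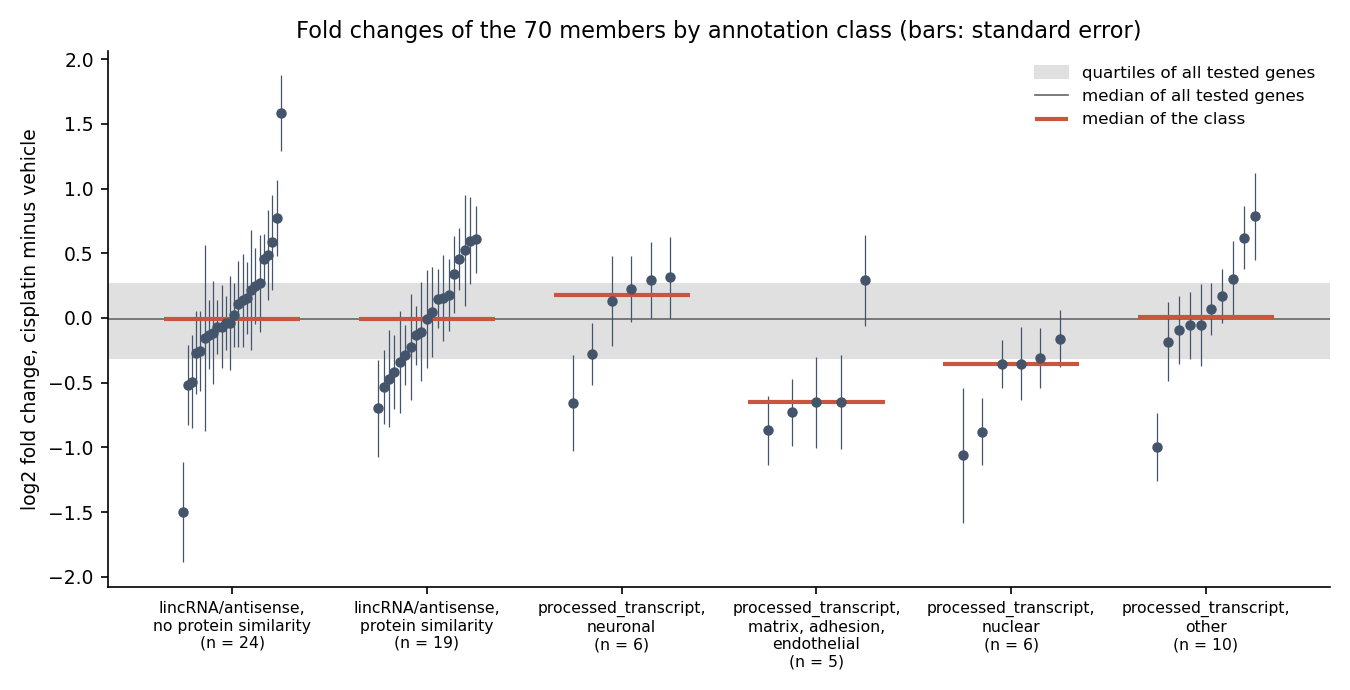
Log2 fold change (cisplatin minus vehicle) of each of the 70 members by annotation class, with its standard error; red lines are class medians and the grey band runs from the lower to the upper quartile of all 16182 tested genes. The matrix, adhesion and endothelial class has the lowest median, -0.65, and the neuronal class the highest, 0.18.

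Gene length varied along with the differences. The 18 members over 5000 bp had a median log2 difference of -0.29, with 14 below 0, and all tested genes over that length had one of -0.29. The 18 members of up to 1000 bp had a median of 0.08, against 0.22 for all genes of that length. Across the 70 members Spearman's rho between log2 difference and length was -0.36, and across all genes -0.32. Genes share their libraries here and are not independent replicates. The processed_transcript members had a median length of 5281 bp and the lincRNA and antisense members one of 1522 bp, so the classes differed in length as well. With a correction for length the number of members at an unadjusted p under 0.05 and the fold of 1.5 went from 8 to 5, and the share of all genes from 7.98% to 6.20%.

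**Figure D4:**
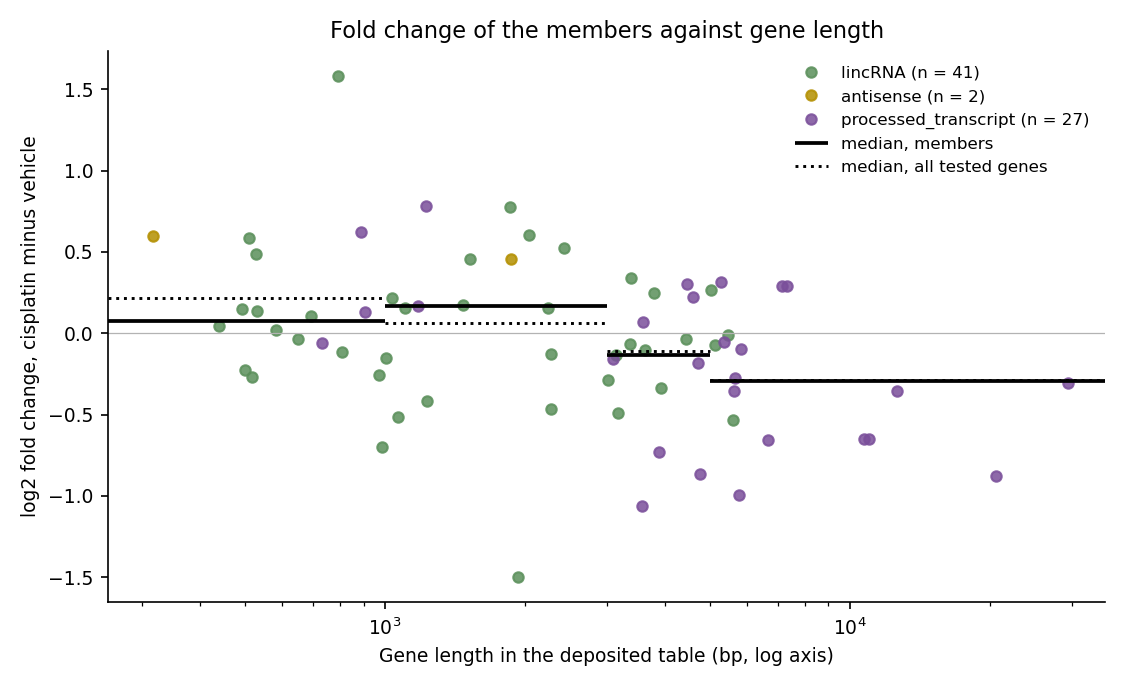
Log2 fold change (cisplatin minus vehicle) of the 70 members against gene length (bp, log axis), coloured by biotype; solid lines are medians of the members and dotted lines medians of all tested genes in 4 length bins. Over 5000 bp both medians are -0.29.

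Of the 12 members above, 6 had a promoter in RefSeq, and the 250 bases before the start are shown for them because they give the sequence context of the members with the clearest differences. They are RefSeq sequences (GRCr8), written 5′ to 3′ on the strand of the gene. The start is that of the RefSeq gene and may not be that of the transcript counted. LOC102549726 is on the other strand in GRCr8 than in the deposited table. Capitals mark motif matches on either strand. The TATA box was searched for as TATAAA. For the CCAAT box the letters of its name were used, and for the GC box the search string was GGGCGG. In these 6 windows no matches overlapped.
Rc3h1, chr13:75706848-75707097, plus strand: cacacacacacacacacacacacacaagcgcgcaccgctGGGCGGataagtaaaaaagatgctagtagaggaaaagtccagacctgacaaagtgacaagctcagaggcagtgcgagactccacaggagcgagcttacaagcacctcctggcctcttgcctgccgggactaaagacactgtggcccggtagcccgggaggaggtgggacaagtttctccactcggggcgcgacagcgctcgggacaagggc
Syne2, chr6:100272479-100272728, plus strand: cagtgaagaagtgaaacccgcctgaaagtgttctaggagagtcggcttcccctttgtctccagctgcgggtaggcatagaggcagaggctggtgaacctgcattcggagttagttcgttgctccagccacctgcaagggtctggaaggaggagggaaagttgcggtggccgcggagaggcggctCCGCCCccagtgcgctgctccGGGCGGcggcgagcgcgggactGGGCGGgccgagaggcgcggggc
Itgb5, chr11:80449374-80449623, minus strand: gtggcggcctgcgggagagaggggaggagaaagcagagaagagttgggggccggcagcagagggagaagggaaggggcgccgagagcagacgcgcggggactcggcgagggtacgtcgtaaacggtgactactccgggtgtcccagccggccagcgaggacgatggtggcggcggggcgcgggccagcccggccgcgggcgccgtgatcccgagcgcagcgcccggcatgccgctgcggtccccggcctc
Arid5b, chr20:20306464-20306713, plus strand: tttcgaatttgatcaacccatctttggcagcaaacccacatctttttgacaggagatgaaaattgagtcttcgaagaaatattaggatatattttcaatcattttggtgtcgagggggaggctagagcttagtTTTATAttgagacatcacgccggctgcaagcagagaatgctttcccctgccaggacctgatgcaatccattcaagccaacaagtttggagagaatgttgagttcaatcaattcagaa
Smim20, chr14:61935533-61935782, minus strand: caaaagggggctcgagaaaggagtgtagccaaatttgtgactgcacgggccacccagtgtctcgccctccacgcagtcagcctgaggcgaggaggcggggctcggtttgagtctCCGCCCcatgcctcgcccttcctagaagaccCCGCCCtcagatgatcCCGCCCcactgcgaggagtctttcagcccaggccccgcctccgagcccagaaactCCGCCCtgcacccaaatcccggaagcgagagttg
LOC102549726, chr20:3880958-3881207, plus strand: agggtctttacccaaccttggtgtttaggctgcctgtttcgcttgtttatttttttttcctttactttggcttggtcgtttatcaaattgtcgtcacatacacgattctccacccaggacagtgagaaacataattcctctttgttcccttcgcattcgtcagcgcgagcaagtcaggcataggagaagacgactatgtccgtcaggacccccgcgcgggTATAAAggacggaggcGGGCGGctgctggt

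In these windows the GC box was found 3 times in Syne2, 4 times in Smim20, once in Rc3h1 and once in LOC102549726. LOC102549726 also held TATAAA starting 30 bases before the start. In Arid5b the match to TATAAA lies on the other strand, written TTTATA, from 117 bases before the start. Of the 19 members with a promoter in the table, 12 (63.2%) held a GC box, as did 30.5% of the 33465 promoters searched. CCAAT was found in 6 (31.6%) against 34.0%, and TATAAA in 2 (10.5%) against 12.9%. The sets are unlike, since these members were expressed, nearly all protein-coding in RefSeq and taken once per gene. The 33465 promoters were not limited in these ways, so the shares do not describe non-coding rows. The G+C content was 58.8% in Rc3h1, 66.0% in Syne2, 74.4% in Itgb5, 64.4% in Smim20, 50% in LOC102549726 and 41.2% in Arid5b, with a median of 51.2% over all promoters. Promoters with many GC boxes stood on both sides, Syne2 being lower and Smim20 higher after cisplatin.

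Of the members that overlap a measured protein-coding gene on the other strand, the 3 with the highest counts give 5 pairs. Tnxb overlaps C4a (complement component 4) over 50262 bp, and C4a had 118 and 96 counts after vehicle and 39 and 68 after cisplatin (log2 -1.11 ± 0.42 SE), lower like Tnxb. The antisense member Rn60_9_0737.3 had 149 and 81 counts after vehicle and 223 and 152 after cisplatin, while LOC689991, which it overlaps over 293 bp, had 711 and 273 against 292 and 223. Their log2 differences were 0.60 ± 0.34 and -1.01 ± 0.38. The antisense member Rn60_20_0032.5 had 239 and 159 against 326 and 267 counts (log2 0.46 ± 0.24), and overlaps 3 class I histocompatibility genes that differed by 0.22 (RT1-S3), 0.53 (RT1-N3) and -1.14 (RT1-T24-4). No adjusted p in these pairs was below 0.537 in edgeR. Over all 70 members, 42 differed in the same direction as the nearest tested protein-coding gene and 28 in the opposite one. Within 5 kb the split was 10 and 10.

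Proteins that bind, process or turn over non-coding RNAs were examined as lists, and none of their members was called. By the unadjusted criterion above, 2.87% of all genes tested were higher and 5.11% lower. Of 12 genes of nonsense-mediated decay, which degrades many spliced snoRNA host RNAs, 0 were higher and 3 lower by that criterion, with a median log2 difference of -0.24. They were Smg1, a kinase (33.9 and 35.9 CPM against 15.6 and 15.9), Upf2, a scaffold (12.9 and 14.8 against 7.43 and 9.20), and Gspt1, a release factor (5.39 and 21.5 against 3.54 and 1.29). Most of the vehicle mean of Gspt1 came from replicate 2. Of 10 polycomb repressive complex 2 genes 1 was lower, Aebp2, at 11.2 and 12.0 against 7.43 and 7.70 CPM. Of 8 snoRNP protein genes, some of box C/D and some of box H/ACA particles, 2 were higher by the same criterion, both of box H/ACA. Nop10 had 54.9 and 63.7 against 115.7 and 110.3 CPM, while Nhp2 had 7 and 9 counts after vehicle and 889 and 15 after cisplatin, so that a single library carried it. The name Nhp2 stands on 2 rows, and these counts are those of the first alone. Among 10 paraspeckle proteins and 13 nuclear exosome genes 0 passed in either direction, with medians of -0.12 and -0.05.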

How the data were processed

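RNA from DRGs was sequenced as 4 libraries, assigned to vehicle or cisplatin from their labels. The authors selected poly-T bound messenger RNA, read paired ends of 150 bp, mapped them with HISAT2 2.0.5 to Ensembl Rnor_6.0 and assembled transcripts with StringTie 1.3.3b. The submitters' processing notes also name featureCounts 1.5.0-p3. The authors deposited raw counts per gene, without normalisation, and FPKM values, which are counts over gene length times 1 library constant. Coordinates are those of the deposited tables (Rnor_6.0) unless GRCr8 is named.

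Counts of all biotypes were filtered with filterByExpr (16182 of 33506 genes kept, all 70 members among them), scaled by TMM and tested by quasi-likelihood in edgeR 4.0.16 (glmQLFit, then glmQLFTest, under R 4.3.3), with Benjamini-Hochberg adjustment over all genes tested. Each standard error is the absolute log2 fold change over the root of its F. DESeq2 1.42.0 and limma 3.58.1 on log2(FPKM + 1) and log2(FPKM + 0.1) were alternatives, with other scalings and filters, a replicate block, a length correction (lowess, span 0.3) and each library left out in turn. The tests were tested on simulated data. The simulated counts had the same spread setting for every gene, so the outcome does not show how the tests behave on these libraries. The members, lists and alternatives were chosen with earlier results of these data known. Members were named if called or among the 12 with non-overlapping groups and the smallest p, among the 6 with the highest FPKM, next to the floor, or antisense to a measured protein-coding gene, and list genes if they passed at an unadjusted p. Members named by role (Adgrb1, Col6a3, Trrap, Gtf2ird2, Syne1, Top2b, Sdk1, Astn1, LOC100364190, Rn60_8_0646.1), the genes around AABR07065531.5, RT1-CE4, RT1-CE2 and the motifs were chosen after their values were seen. Over the members no 2 libraries agreed within sampling noise (chi-square per degree of freedom of at least 19.3). By its label each library is a separate rat, and no source says whether DRGs of several rats were combined. Depth gave a floor of 3 counts at 0.117 to 0.140 CPM, scaled to library size alone. This is counting error alone, since the reads carry no molecular identifiers.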

Additional observations from a re-analysis of the deposited data

How the results depend on the processing

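With 2 libraries per group, the count of members called by an adjusted p was 0 under scaling, filter and FPKM alternatives and with each library left out, 1 with DESeq2, 12 with the replicate number as a block (9.83% of all genes were called there) and 4 (5.71%) when the length correction was added to the block, where 5.36% of all genes were called. The numbers 1 and 2 come from the titles alone and same-numbered libraries are not stated to share anything. The deposited column headers give the cisplatin libraries other numbers than the titles do, so the pairing in the block rests on the titles only. Their deviations from the group means correlated at r = 0.432 over all 16182 genes and 0.660 over the members. Over all genes with at least 50 counts in every library, the floor of the members, r was 0.662. The block called AABR07045680.1, AABR07054593.1 and Smim20 as higher and Col6a3, Tnxb, Syne2, Itgb5, Cd93, Sdk1, Rc3h1, AABR07071395.1 and Arid5b as lower. At an unadjusted p, 8 members passed, against 14 with the block (20.0%, all genes 14.3%), 5 with the length correction (7.14%, all genes 6.20%) and 2 to 16 with 1 library left out (all genes 3.70% to 12.3%). The median log2 fold change stayed below 0 in every alternative and ran from -0.1624 to -0.0012 with 1 library left out. The members' share of summed FPKM was 0.205% in the vehicle libraries, against 0.234% of counts. Without the filter on low counts edgeR called 36 of all genes and 0 members.

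Log2 differences near 0 changed sign for AABR07065531.5 (-0.033 with library size alone, -0.22 with the length correction, -0.24 with block and length correction, -0.2391 to 0.2494 with 1 library left out), for AABR07027407.1 (-0.0255, -0.21 and -0.19 in the same order, -0.2959 to 0.4936 with 1 library left out), for Rn60_10_0699.2 (-0.11 with the length correction, -0.11 with block and length correction, -0.0113 to 0.3087 with 1 library left out), for Snx3 (-3e-04 with block and length correction) and for Sv2b (-0.0774 to 0.6313 with 1 library left out, below 0 without cisplatin replicate 1). The cause was not tested. Of the 21 members recomputed under every alternative, the other 16 kept their direction in all 14. Syne2 and Tnxb went to -0.31 and -0.25 with the length correction and were not called with the block and that correction together. Members named by role alone were not recomputed one by one.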

Other observations

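The floor of 50 counts in every library left out 17 rows with the same biotypes that reached it in both libraries of 1 group, 9 in vehicle and 8 in cisplatin. AABR07000382.1, a lincRNA of 1158 bp on chromosome 1 (11766992 to 11772215), had 190 and 248 counts after vehicle and 4 and 7 after cisplatin (log2 -5.45 ± 0.52 SE). AABR07013729.1, a lincRNA of 5367 bp on chromosome 2 (254022079 to 254039326), had 3 and 3 counts after vehicle and 82 and 100 after cisplatin (log2 4.74 ± 0.52 SE). Both were picked after their values were seen, and reaching the floor in 1 group only builds a difference into the choice, so the values are a description.

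St8sia2 and AABR07052758.1 are also among the rows that reached the floor in both libraries of 1 group only. A difference is thus built into their choice as well. St8sia2, a processed_transcript row at the locus of a polysialyltransferase, had 102 and 173 counts after vehicle and 24 and 89 after cisplatin (edgeR adjusted p = 0.58). Its groups did not overlap in CPM, as in 41.4% of all genes tested. AABR07052758.1 had 29 and 343 counts after vehicle and 121 and 241 after cisplatin, a spread within the vehicle group that exceeded the difference between groups. A further 8 rows with these biotypes on chromosomes X or Y had at least 50 counts in every library and are not among the members.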
